A study of Mus musculus with 26 samples.

Results

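Sca-1 negative cardiac stromal cells were compared between day 28 and day 7 after the left anterior descending (LAD) coronary artery had been tied off, a model of myocardial infarction in the mouse. The comparison took 6 of the 26 RNA sequencing libraries of the series: 3 at day 28, coded E4, B4 and B6, and 3 at day 7, coded 1B and 4B and one without a code. Members were taken by time point and by sorting gate. The gate stands in the titles of all day 28 libraries and of 1 of the day 7 libraries, while for 1B and 4B it comes only from the names of the deposited files. All mice were C57BL/6, of the strain given as B6.129S4-Pdgfratm11(EGFP)Sor/J, with the genotype PDGFRa H2BEGFP+, so that a nuclear green fluorescent protein (GFP) marks cells in which the Pdgfra gene is active. Cells were taken from dissociated hearts as negative for CD45 (leukocytes), negative for CD31 (endothelium) and GFP positive, and were then separated by SCA-1, a protein of the cell surface whose gene is Ly6a. Undamaged hearts, hearts 14 days after ligation and the Sca-1 positive cells of each time were used for reference. Age and sex were not given, nor was it stated whether each library came from a separate animal or from pooled animals. Every p below therefore measures a spread between libraries, which may be technical. In the main fit this spread was estimated over all 26 libraries in 8 groups, so libraries outside the comparison also shape it.

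Pdgfra-positive stromal cells of the heart are mostly fibroblasts. After an infarct, resting fibroblasts divide, take on contractile features and secrete fibronectin, periostin and collagens that replace the lost muscle. In the weeks that follow, division and contractile gene expression decline while the scar matures, and fibroblasts of the mature scar have been described with a matrix programme that resembles tendon and cartilage. Small leucine-rich proteoglycans and crosslinking enzymes then shape the collagen fibrils.

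Gene expression differed in both directions. Of 14052 genes tested, 460 were higher at day 28 than at day 7 (3.27% of those tested) and 482 were lower (3.43%), together 942 (6.70%), with the quasi-likelihood test of edgeR and a Benjamini-Hochberg adjusted p under 0.05 as the threshold for a call. Genes of mitosis, fibroblast activation, contraction and collagen were among the lower ones, and genes of resting cardiac fibroblasts among the higher ones. The 3 libraries of one time lay wholly above the 3 of the other for 2189 genes in the higher direction (15.6%) and 2372 in the lower direction (16.9%). These counts depended on single libraries. Without B6, 184 genes were higher and 136 lower, and without B4 they were 202 and 180. Leaving out a day 7 library gave 258 and 264 without the uncoded one, 273 and 283 without 1B, and 291 and 276 without 4B. Without E4, in contrast, 526 genes were higher and 474 lower. With the gate taken from titles alone, which leaves 1 day 7 library, 58 genes were higher and 69 lower, on the assumption that this lone library varies like the other groups. Leaving out 6 libraries of other groups that detected few genes or had many reads outside genes gave 1179 higher and 1384 lower genes, an alternative chosen after seeing the data. Against undamaged Sca-1 negative cells, 159 genes were higher at day 28 (1.13%) and 54 lower (0.384%), together 213 (1.52%).

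**Figure D1:**
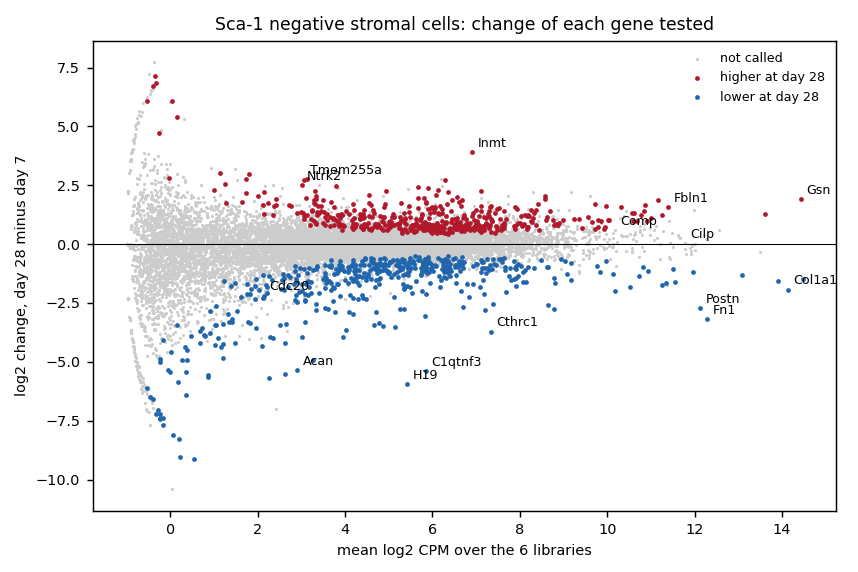
Change of each of the 14052 genes tested (log2, day 28 minus day 7, vertical axis) against its mean level in the 6 Sca-1 negative libraries (log2 CPM, horizontal axis). Red points are the 460 genes called higher at day 28, blue points the 482 called lower and grey points the rest; H19, C1qtnf3 and Acan lie far below the zero line and Inmt far above it, while Comp and Cilp are grey.

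Depth was alike at both times, with 10737619, 15488424 and 15601016 counts in genes for E4, B4 and B6 at day 28, against 14165052, 13114572 and 10889736 for the uncoded library, 1B and 4B at day 7. Levels are given as CPM, counts scaled to a common library size, and folds are from the fitted log2 changes. Ly6a, the gene of the protein used for the gate, was low in all 6, at 25.5, 42.6 and 56.1 CPM at day 28 and 31.2, 35.8 and 31.6 CPM at day 7. In the Sca-1 positive cells it averaged 349.5 ± 50.3 CPM at day 28 (SD, n = 4) and 309.2 ± 20.8 CPM at day 7 (SD, n = 3). Pdgfra, which drives the reporter, was at 494, 609 and 573 CPM at day 28 and at 343, 341 and 367 CPM at day 7. Its groups did not overlap, and its change of 0.67 ± 0.21 on the log2 scale (± SE) did not pass the threshold (adjusted p = 0.0561). Pdgfra did pass with DESeq2 (adjusted p = 0.0231), with limma-voom (0.0451), with library totals (0.038), in the 6 libraries alone (0.0313), without E4 (0.0489) and without the 6 other libraries (0.0119), and its log2 change was 0.61 to 0.75 over all alternatives. The leukocyte gene Ptprc was between 0 and 2.04 CPM in the 6 libraries, and the endothelial gene Pecam1 between 1.78 and 18.4 CPM. Xist, the transcript of the inactive X chromosome, was below 2 CPM at day 28, at 1.98, 0.708 and 0.41 CPM, and at 53.1, 0 and 332 CPM in the uncoded library, 1B and 4B at day 7. All 6 libraries held Ddx3y, a Y-linked gene, at 78.5 to 112 CPM at day 28 and at 50.2 to 81.8 CPM at day 7, so that 2 of the day 7 libraries held both Xist and a Y-linked transcript. The part of this mixture in the results was not tested. In bulk libraries, fewer cells of a kind and less RNA per cell cannot be told apart.

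Genes of mitosis were lower at day 28. Of 40 members of the cell cycle list, 14 were called lower and none higher, and their median change was -2.20 on the log2 scale, against 0.00 over all genes tested. Cdc20, which activates the anaphase-promoting complex, had 1.62, 1.20 and 2.60 CPM at day 28, against 8.05, 10.4 and 6.58 CPM at day 7. All day 28 values were below all day 7 values, and the gene was 4.59-fold lower (log2 change -2.20 ± 0.48, adjusted p = 0.00692). Its 4 undamaged libraries lay between 1.47 and 2.05 CPM. Ube2c, the ubiquitin-conjugating enzyme that works with that complex, had 0.361, 0 and 0.546 CPM at day 28 and 6.99, 9.04 and 3.29 CPM at day 7 (log2 change -4.39 ± 0.96, adjusted p = 0.00692). Mki67, the common marker of cycling cells, was at 2.07, 0.142 and 1.30 CPM at day 28 and at 15.9, 24.5 and 14.5 CPM at day 7, without overlap (log2 change -3.99 ± 1.12, adjusted p = 0.0316).

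Kif23, a kinesin of the dividing cell's midzone, fell by 3.17 ± 0.76 on the log2 scale (adjusted p = 0.0121), and Tyms, which makes thymidylate for DNA synthesis, by 1.02 ± 0.25 (adjusted p = 0.0151). The other called members were Top2a, Prc1, Aurkb, Plk1, Cenpf, Cenpe, Cdk1, Tpx2 and E2f1, with log2 changes between -4.91 (Aurkb) and -2.14 (E2f1). Several replication genes were not called. Mcm3, a subunit of the replicative helicase, changed by 0.07 ± 0.24, Mcm6 by -0.60 ± 0.22 and Pcna, the sliding clamp, by 0.64 ± 0.28. Ccnd1, the cyclin of entry into the cycle, was at 106, 140 and 114 CPM at day 28 and at 33.2, 109 and 59.2 CPM at day 7, with overlap. Counts of called members such as Cdc20, Ube2c and Kif23 were low, and the calls of the list rested on few libraries. The list had 1 lower call without B4, 2 without B6, 4 without the uncoded library, 2 without 1B and 8 without 4B. Without 1B, 1 member was called higher, and 1 was without the 6 libraries of other groups described above. The list's median stayed between -2.43 and -1.96 over all 6 omissions. Among the named genes, Ube2c kept its call in each omission, Cdc20 lost it without B4 (adjusted p = 0.0536), Kif23 without B4, B6 or 1B (adjusted p = 0.0795, 0.0564 and 0.0551) and Tyms without B4, B6, the uncoded library or 1B (adjusted p = 0.0535 to 0.0921). Mki67 kept its call only when E4 was the library left out, with an adjusted p of 0.0536 to 0.152 otherwise.

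The promoters of the 5 named cell cycle genes are shown. Mitotic genes are known to carry a cell cycle homology region (CHR element) near their start, often with CCAAT boxes that bind NF-Y. Apart from Mki67, the genes shown were chosen as called members, and all calls of the list were lower. Their shared direction is therefore no separate result. The windows run from 250 bases before to 50 bases after the RefSeq start (GRCm38.p6), 5′ to 3′ on the gene's strand. Capitals mark TTTGAA (the CHR element), CCAAT (the NF-Y box) and TTCCCGC or TTGGCGC (E2F sites) on either strand; where letters of 2 matches meet, as in Ube2c, they form 1 run.
Cdc20 (chr4:118437294-118437593, minus strand): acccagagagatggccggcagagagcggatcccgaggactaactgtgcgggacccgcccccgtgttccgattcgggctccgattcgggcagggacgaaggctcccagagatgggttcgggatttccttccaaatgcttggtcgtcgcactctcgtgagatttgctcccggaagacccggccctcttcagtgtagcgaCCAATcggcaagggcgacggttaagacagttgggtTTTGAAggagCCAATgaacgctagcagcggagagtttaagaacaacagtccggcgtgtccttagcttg
Ube2c (chr2:164769679-164769978, plus strand): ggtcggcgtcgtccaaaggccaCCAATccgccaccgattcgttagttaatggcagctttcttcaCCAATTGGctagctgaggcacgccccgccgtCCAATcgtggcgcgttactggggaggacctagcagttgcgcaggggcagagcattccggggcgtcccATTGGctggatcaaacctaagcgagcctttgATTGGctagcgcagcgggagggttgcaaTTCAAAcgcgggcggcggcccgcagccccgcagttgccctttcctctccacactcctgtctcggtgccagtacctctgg
Kif23 (chr9:61946750-61947049, minus strand): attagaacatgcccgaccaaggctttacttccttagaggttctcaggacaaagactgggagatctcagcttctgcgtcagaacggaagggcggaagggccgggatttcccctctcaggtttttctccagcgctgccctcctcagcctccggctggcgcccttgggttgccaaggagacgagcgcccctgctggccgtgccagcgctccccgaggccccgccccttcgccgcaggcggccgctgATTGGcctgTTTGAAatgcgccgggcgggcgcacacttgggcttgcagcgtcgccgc
Mki67 (chr7:135716330-135716629, minus strand): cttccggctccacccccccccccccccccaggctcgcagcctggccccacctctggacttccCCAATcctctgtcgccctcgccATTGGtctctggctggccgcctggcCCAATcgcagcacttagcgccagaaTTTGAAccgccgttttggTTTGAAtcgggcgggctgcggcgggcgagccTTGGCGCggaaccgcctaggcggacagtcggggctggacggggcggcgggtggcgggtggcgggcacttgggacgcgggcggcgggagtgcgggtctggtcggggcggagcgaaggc
Tyms (chr5:30073576-30073875, minus strand): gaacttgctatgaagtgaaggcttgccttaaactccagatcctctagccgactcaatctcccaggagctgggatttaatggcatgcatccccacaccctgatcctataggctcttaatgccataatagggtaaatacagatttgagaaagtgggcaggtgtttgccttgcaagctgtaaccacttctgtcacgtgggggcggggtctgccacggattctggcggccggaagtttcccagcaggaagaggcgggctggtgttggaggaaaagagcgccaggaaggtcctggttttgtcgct

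The windows of Cdc20, Ube2c, Kif23 and Mki67 each held the CHR letters and at least 1 NF-Y box, while Tyms, the gene of this group that acts in DNA synthesis, held none of the motifs searched. In Cdc20 and Kif23 the CHR match began 18 bases before and 2 bases after the start. Of the 33 list members with a window, 15 (45.5%) held TTTGAA, 24 (72.7%) held CCAAT and 9 (27.3%) held an E2F site. Among the 12 called members with a window the numbers were 9 (75.0%), 10 (83.3%) and 2 (16.7%). Over all 32851 windows the shares were 17.9%, 37.4% and 6.8%. A match describes letters and not a binding site.

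Activation genes of the early wound were lower. Of 30 members, 16 were called lower and none higher (median log2 change -1.43). Cthrc1, a secreted protein that marks the activated, collagen-producing fibroblast of the infarct (ENSMUSG00000054196.7, GRCm38 chromosome 15, 39076932 to 39087121), had 76.4, 36.8 and 29.3 CPM at day 28, against 721, 792 and 358 CPM at day 7. The groups were far apart, and the gene was 13.2-fold lower at day 28 (log2 change -3.72 ± 0.53, adjusted p = 0.000206). It was still above the undamaged hearts, where 4 libraries lay between 0.404 and 2.55 CPM (adjusted p = 2.18e-05 for day 28 against undamaged). Fn1, the gene of fibronectin (ENSMUSG00000026193.15, chromosome 1, 71585520 to 71653200), had 1823, 1655 and 1593 CPM at day 28 and 17180, 18550 and 10250 CPM at day 7. It was 9.07-fold lower (log2 change -3.18 ± 0.54, adjusted p = 0.000898), and again above the undamaged range of 149 to 236 CPM (adjusted p = 0.000651).

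Postn, the gene of periostin, a matricellular protein of activated fibroblasts (ENSMUSG00000027750.16, chromosome 3, 54361109 to 54391037), had 3526, 1017 and 1157 CPM at day 28 and 12950, 15100 and 9708 CPM at day 7. Library E4 was the highest of day 28 and remained below all of day 7 (log2 change -2.73 ± 0.59, adjusted p = 0.006). Without B6 the call was lost (adjusted p = 0.0542). Sparc, a collagen-binding matricellular protein, was 2.45-fold lower, with 7457, 4711 and 4784 CPM at day 28 and 16510, 14410 and 10670 CPM at day 7 (adjusted p = 0.00169). Adam12, a membrane protease of activated mesenchymal cells, had 6.94, 8.5 and 7.10 CPM at day 28 and 54.9, 109 and 83.5 CPM at day 7, without overlap (log2 change -3.45 ± 0.53, adjusted p = 0.000394). Tnc, Ddah1, Cdh2, Cdh11, Wisp1, Aspn, Ltbp2, Ptn, Timp1, Lox and Runx1 completed the called members. The list had 9 lower calls without B4 and 8 without B6, and 1 member was called higher without the 6 libraries of other groups.

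Several genes often named with activation did not pass the threshold. Fap, the gene of fibroblast activation protein, was at 86.9, 94.8 and 76.4 CPM at day 28 and at 71.8, 104 and 77.0 CPM at day 7 (log2 change 0.03 ± 0.28). The ranges overlapped almost completely. Meox1, a transcription factor of stressed fibroblasts, had 359, 168 and 144 CPM at day 28 and 286, 260 and 341 CPM at day 7, with overlap (-0.40 ± 0.35). Thbs1 and Thbs2, thrombospondins of the matrix, changed by -0.21 ± 0.45 and -0.28 ± 0.30, and Ctgf, a target of TGF-beta, by -0.53 ± 0.41.

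Contractile genes of the myofibroblast were lower in part. Of 23 members, 9 were called lower and none higher (median -0.62). Acta2, smooth muscle actin (ENSMUSG00000035783.9, chromosome 19, 34241090 to 34255590), had 84.3, 44.6 and 42.8 CPM at day 28 and 201, 455 and 149 CPM at day 7, without overlap (log2 change -2.23 ± 0.46, adjusted p = 0.00426). Tagln, transgelin, an actin-bundling partner, had 59.0, 42.3 and 30.4 CPM at day 28 and 204, 446 and 176 CPM at day 7 (adjusted p = 0.000372). Library 1B was the highest of day 7 for both genes. Both were near the undamaged means of 50.1 CPM for Acta2 and 53.3 CPM for Tagln, from which day 28 did not differ (adjusted p = 0.876 and 0.776). Actn1 and Vcl, alpha-actinin and vinculin of focal adhesions, fell by 1.60 and 1.00 on the log2 scale (adjusted p = 0.000603 and 0.00417). Myh11 and Lmod1, smooth muscle genes not typical of fibroblasts, changed by 0.48 ± 0.80 and 0.84 ± 0.55, neither past the threshold. Of 14 mural markers, Acta2 and Mcam were lower and none was higher. These markers summed to 867 to 1290 CPM at day 28 and 1100 to 1510 CPM at day 7, with Pdgfrb, Heyl and Acta2 the largest. The part of mural cells in these values was not tested. The list of contractile genes had 5 lower calls without B4 and 4 without B6.

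**Figure D2:**
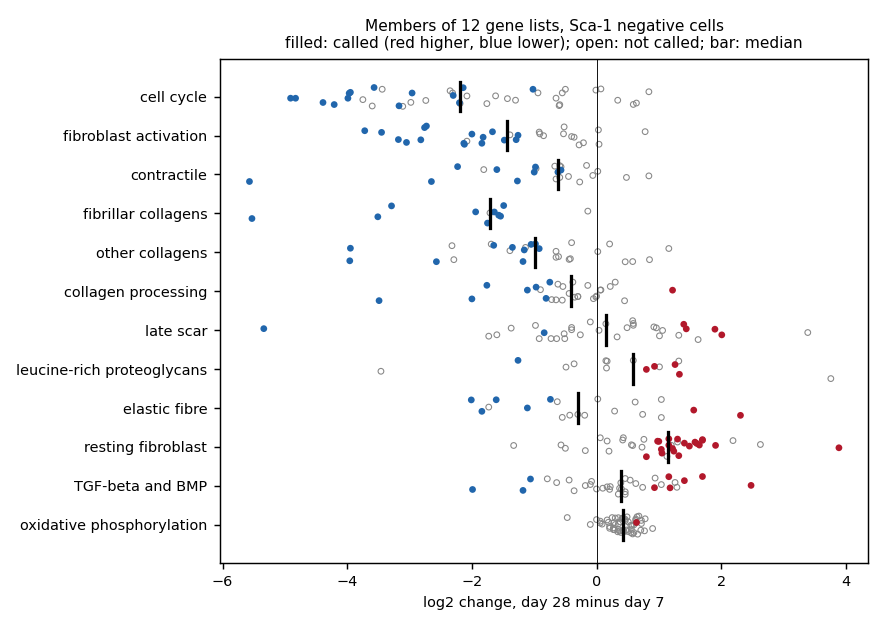
Log2 change (day 28 minus day 7) of the tested members of 12 gene lists in Sca-1 negative cells. Each point is a gene, filled where called (red higher, blue lower) and open where not, and the bar is the list's median, from -2.20 for the cell cycle to 1.14 for resting fibroblast genes; vertical scatter within a list has no meaning.

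Collagens were lower across the fibril-forming class. Of 11 fibrillar collagen genes, 9 were called lower and all 11 changes were below 0 (median -1.71). Col1a1 (ENSMUSG00000001506.10, chromosome 11, 94936224 to 94953042), which encodes the main chain of type I collagen, had 11350, 8639 and 7814 CPM at day 28 and 33950, 40260 and 32490 CPM at day 7. It was 3.84-fold lower (log2 change -1.94 ± 0.29, adjusted p = 0.00034). Day 28 was still above the undamaged mean of 4143 CPM (adjusted p = 0.0216). Col3a1, type III collagen, had 18240, 11500 and 11380 CPM at day 28 and 43200, 35020 and 37530 CPM at day 7, 2.81-fold lower (adjusted p = 0.000431) and also above the undamaged mean of 6042 CPM (adjusted p = 0.00398). The type V chains Col5a1 and Col5a2, which help to set fibril diameter, were 3.12-fold and 3.37-fold lower. Col5a3, with a log2 change of -0.14 ± 0.35, and Col11a2, with -1.71 ± 0.99, did not pass the threshold. Col2a1, the collagen of cartilage, was at 1.44, 0.779 and 0.205 CPM at day 28 and at 53.0, 44.9 and 12.2 CPM at day 7 (log2 change -5.53 ± 1.05, adjusted p = 0.00304).

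Among the other collagens, 10 of 27 tested were lower and none higher (median -0.98). Col12a1, a collagen on the surface of fibrils, was at 256, 126 and 132 CPM at day 28 and at 1051, 1304 and 703 CPM at day 7, 5.95-fold lower (adjusted p = 0.0033). Col7a1, of anchoring fibrils, had 2.52, 1.63 and 1.43 CPM at day 28 and 27.8, 38.7 and 20.4 CPM at day 7 (adjusted p = 0.00322), and Col9a2, a cartilage collagen, 6.22, 3.05 and 2.53 CPM at day 28 and 85.6, 37.2 and 58.1 CPM at day 7 (adjusted p = 0.00519). The groups of these 3 genes were widely separated. Basement membrane chains were among the calls, with Col4a1 at -1.05 ± 0.31, Col4a2 at -1.16 ± 0.33 and Col4a5 at -0.92 ± 0.22 on the log2 scale. The type VI chains Col6a1 and Col6a2 changed by -0.42 ± 0.21 and -0.44 ± 0.24 and were not called, whereas Col6a3 was, at -0.98 ± 0.29. The list had 4 lower calls without B6 and 5 without the uncoded library, and 1 member was called higher without E4.

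Enzymes that modify and crosslink collagen split. Of 28 members, 7 were lower and 1 was higher, against 3.43% and 3.27% of all genes tested (median -0.41). P4ha3, a prolyl hydroxylase subunit, had 12.1, 7.58 and 6.49 CPM at day 28 and 109, 110 and 73.6 CPM at day 7, 11.2-fold lower (adjusted p = 0.00117), while P4ha1 and P4ha2, which encode the alternative subunits, changed by 0.30 ± 0.25 and 0.06 ± 0.22, both under the threshold. Plod2, the lysyl hydroxylase of collagen ends, was 3.40-fold lower (adjusted p = 0.000372). Lox, lysyl oxidase, had 530, 552 and 663 CPM at day 28 and 2408, 2846 and 1718 CPM at day 7 (adjusted p = 0.00459). Loxl2 and Loxl3 were called as well, at -0.97 ± 0.25 and -1.11 ± 0.34, but Loxl1 was not, at -0.30 ± 0.23. The higher member was Pcolce2, an enhancer of procollagen cleavage (ENSMUSG00000015354.8, chromosome 9, 95637601 to 95698096). It had 434, 424 and 409 CPM at day 28 and 176, 198 and 169 CPM at day 7, so that the libraries of a time lay close together and the times far apart (log2 change 1.22 ± 0.17, adjusted p = 0.000139). Pcolce, its relative, changed by 0.22 ± 0.21. The list had 3 lower calls without B4, 3 without B6, 3 without the uncoded library and 4 without 1B, and Pcolce2 stayed called in each.

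Elastic fibre genes moved in both directions, with 2 of 19 higher and 5 lower (median -0.30). The shares over all genes tested were 3.27% and 3.43%. Fbln1, fibulin-1, a matrix protein that binds fibronectin and elastin (ENSMUSG00000006369.14, chromosome 15, 85205949 to 85286535), had 4620, 4597 and 4894 CPM at day 28, against 1692, 1072 and 2008 CPM at day 7. It was 2.96-fold higher at day 28 (log2 change 1.56 ± 0.26, adjusted p = 0.000603). Undamaged libraries lay between 1698 and 2377 CPM, below every day 28 value (adjusted p = 0.00814 for day 28 against undamaged), and the day 14 libraries had 2203 and 1734 CPM. Fbn1, fibrillin-1, had 1892, 1995 and 1331 CPM at day 28 and 6377, 5720 and 3833 CPM at day 7, 3.05-fold lower (adjusted p = 0.00495). Eln, elastin, varied widely at day 7, with 2480, 1271 and 1379 CPM at day 28 and 10430, 1470 and 5071 CPM at day 7, and was not called (adjusted p = 0.118). Efemp1, a fibulin, was 4.96-fold higher (adjusted p = 0.0241), a call lost without B4, B6, the uncoded library or 1B (adjusted p = 0.102, 0.0971, 0.101 and 0.0509). The number of lower members was 1 without B4, 1 without B6, 2 without the uncoded library, 3 without 1B and 3 without 4B, and of higher members 1 without B4, B6, the uncoded library or 1B and 3 without E4.

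Of 15 small leucine-rich proteoglycans tested, which bind fibrils and regulate their growth, 4 were higher and 1 was lower (median 0.59, and 0.04 without E4). The shares over all genes tested were 3.27% and 3.43%. Dcn, decorin (ENSMUSG00000019929.16, chromosome 10, 97479609 to 97518143), had 17320, 19030 and 22590 CPM at day 28 and 7478, 8990 and 8072 CPM at day 7. The groups did not overlap (log2 change 1.26 ± 0.21, adjusted p = 0.000898), and the undamaged libraries, at 17640 to 20580 CPM, lay within the day 28 range. Prelp, which anchors basement membranes, had 3310, 2353 and 1894 CPM at day 28 and 1191, 951 and 868 CPM at day 7 (adjusted p = 0.0055). Ecm2 and Podn were also higher, 1.74-fold and 1.91-fold. The member that was lower was Aspn, asporin, at -1.26 ± 0.31. Bgn, Lum and Fmod, at -0.36 ± 0.27, 0.17 ± 0.21 and 0.15 ± 0.57, were not called. Without the uncoded library 2 members were higher, Ecm2 and Podn having lost their calls (adjusted p = 0.0538 and 0.0701); Ecm2 also lost it without 4B (adjusted p = 0.0553) and Podn without B4 (adjusted p = 0.0759). No member was lower without B4, B6 or 1B.

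Genes of tendon and cartilage matrix described in late scar fibroblasts were called in both directions. Of 33 tested, 4 were higher (against 3.27% of all genes tested) and 2 lower (against 3.43%), and the median change was 0.15, or -0.40 without E4. Comp, cartilage oligomeric matrix protein (ENSMUSG00000031849.9, chromosome 8, 70373558 to 70382066), had 2420, 948 and 1356 CPM at day 28 and 1723, 937 and 488 CPM at day 7. The times overlapped (log2 change 0.59 ± 0.60, adjusted p = 0.629). Both lay above the undamaged hearts, where the 4 libraries ran from 80.6 to 237 CPM (adjusted p = 0.00376 for day 28 against undamaged). Cilp, cartilage intermediate layer protein (ENSMUSG00000042254.14, chromosome 9, 65265180 to 65280605), was likewise at 5750, 2238 and 3147 CPM at day 28 and at 3927, 3534 and 3384 CPM at day 7, with the day 28 values on both sides of day 7 (log2 change 0.04 ± 0.52). Its undamaged libraries had 178 to 600 CPM (adjusted p = 0.000548). Fmod, fibromodulin, followed the same pattern with 1799, 449 and 486 CPM at day 28, 1041, 693 and 732 CPM at day 7 and an undamaged mean of 124 CPM (adjusted p = 0.916 against day 7 and 0.00628 against undamaged).

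Within day 28, library E4 stood apart for this list, among others. It had the highest of the 3 values for 24 of the 33 genes, and its median ratio to the mean of B4 and B6 was 1.84 (computed after adding 0.5 CPM to each). Chad was at 53.99, 10.2 and 8.81 CPM in E4, B4 and B6, Angptl7 at 508, 118 and 140 CPM, and Scx, a transcription factor of tendon, at 24.9, 4.96 and 4.92 CPM. In E4 activation genes were also the highest of day 28 for 22 of 30 members, with a median ratio of 1.63. E4 was the lowest for 28 of 38 resting genes and 26 of 32 immediate early genes, with median ratios of 0.728 and 0.501. It was also the lowest for 41 of 56 genes of oxidative phosphorylation and 30 of 38 of the secretory pathway (0.861 and 0.794). How often E4 was highest or lowest over all genes tested was not computed. Markers of other cell types differed in E4 too. It was the highest of day 28 for 12 of 17 endothelial markers (median ratio 3.34), 4 of 6 Schwann cell markers (2.15) and 10 of 16 cardiomyocyte markers (1.49), and the lowest for 11 of 15 epicardial markers (0.413). The part of these cells in the values of E4 was not tested. E4 carries a letter code and B4 and B6 a numbered prefix, as 1B and 4B do at day 7. Whether code or preparation has a part in this was not tested. With prefixed libraries alone at days 7 and 28, 442 genes were higher and 359 lower.

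The 4 higher members of the late scar list were Crispld2, Chrdl1, Clec3b and Cpxm2. Crispld2, a secreted glycoprotein, had 2751, 3083 and 3167 CPM at day 28 and 1257, 1092 and 1059 CPM at day 7, 2.64-fold higher (adjusted p = 0.000904), with an undamaged mean of 2646 CPM. Chrdl1, a secreted BMP antagonist, had 15.7, 19.9 and 21.2 CPM at day 28 and 4.59, 7.63 and 2.92 CPM at day 7, 3.74-fold higher (adjusted p = 0.00126), with an undamaged mean of 10.1 CPM (adjusted p = 0.144). Acan, aggrecan, the main proteoglycan of cartilage (ENSMUSG00000030607.7, chromosome 7, 79053483 to 79115099), went the other way, with 1.17, 0.638 and 1.16 CPM at day 28 and 56.4, 42.7 and 21.8 CPM at day 7. It was 40.6-fold lower (log2 change -5.34 ± 1.11, adjusted p = 0.00459). Sox9, the transcription factor of cartilage, had 97.1, 85.4 and 105 CPM at day 28 and 223, 151 and 142 CPM at day 7, 1.79-fold lower (adjusted p = 0.00267) and near the undamaged mean of 106 CPM. The list had 2 higher members without the uncoded library.

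Genes of resting cardiac fibroblasts were higher at day 28. Of 38 members, 20 were called higher and none lower, with 34 changes above 0 and a median of 1.14. Gsn, gelsolin, an actin-severing protein abundant in resting fibroblasts (ENSMUSG00000026879.14, chromosome 2, 35256380 to 35307892), had 30320, 50140 and 50710 CPM at day 28 and 10180, 12220 and 12460 CPM at day 7. All 3 day 28 libraries were above day 7, with E4 the lowest of them (log2 change 1.91 ± 0.25, adjusted p = 0.00011), and the undamaged libraries lay between 37410 and 41740 CPM. Inmt, a methyltransferase of indole amines (ENSMUSG00000003477.5, chromosome 6, 55170626 to 55175043), had 252, 506 and 726 CPM at day 28 and 18.0, 37.9 and 44.0 CPM at day 7. It was 14.9-fold higher (log2 change 3.89 ± 0.55, adjusted p = 0.000198), within the undamaged range of 216 to 590 CPM for E4 and B4 and above it for B6.

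Gpx3, a secreted glutathione peroxidase, and Aldh1a1, which makes retinoic acid, were 3.13-fold and 2.65-fold higher (adjusted p = 0.00121 and 0.00169). Tcf21, a transcription factor of the cardiac fibroblast lineage, was at 141, 245 and 274 CPM at day 28 and at 117, 87.3 and 91.2 CPM at day 7 (log2 change 1.16 ± 0.32, adjusted p = 0.0262). Cxcl14, a chemokine, was 3.26-fold higher (adjusted p = 0.026), a call lost without B4, B6, the uncoded library, 1B or 4B (adjusted p = 0.0507 to 0.149). The further calls were Dpep1, Smoc2, Vwa1, Htra3, Scara5, Mgst1, Entpd2, Scn7a, Ebf2, Abca8a, Kcnk2, Cygb, Hsd11b1 and Lpl. Gata4, Gata6 and Tbx20, further cardiac lineage factors, changed by 0.17 ± 0.22, -0.18 ± 0.20 and -0.50 ± 0.26 and were not called. Wif1, a secreted inhibitor of Wnt signalling, was not called and stayed far below undamaged hearts. It had 0.451, 0.283 and 0.0683 CPM at day 28 and 0, 1.89 and 0 CPM at day 7, while the undamaged libraries had 40.7 to 223 CPM (adjusted p = 0.000122 for day 28 against undamaged) and those of day 14 had 5.17 and 15.01 CPM. The list had 12 higher calls without B4, 11 without B6 and 13 without the uncoded library. Adipocyte markers summed to 20.1 to 53.9 CPM at day 28 and 12.6 to 23.2 CPM at day 7, with 5 and 4 of the 9 markers at 0 in all 3 libraries of day 28 and of day 7; their part in the result was not tested.

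**Figure D3:**
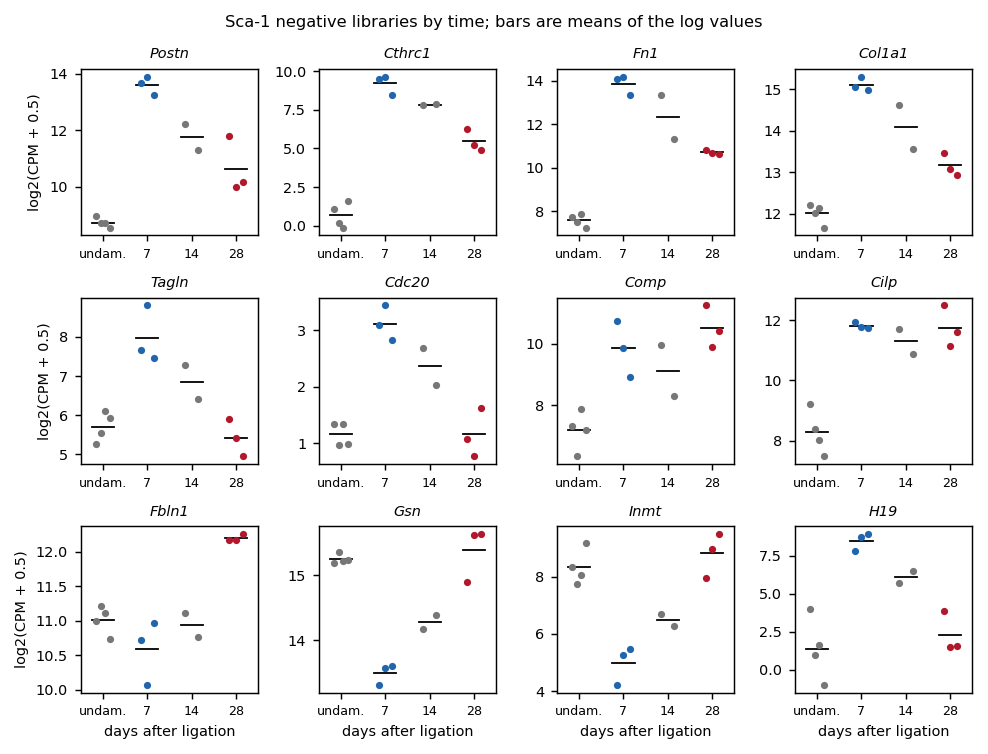
Levels of 12 genes in Sca-1 negative libraries of undamaged hearts and of days 7, 14 and 28 after ligation, as log2(CPM + 0.5) with 1 point per library and a bar at the mean of the log values. Vertical scales differ between panels; Postn, Cthrc1, Fn1 and Col1a1 stay above undamaged at day 28, Tagln and Cdc20 lie near it, Comp and Cilp are alike at days 7 and 28, and Fbln1 is highest at day 28.

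Ligands and receptors of the TGF-beta family changed in both directions, 6 of 35 higher and 3 lower (median 0.39). Over all genes tested the shares were 3.27% and 3.43%. Bmp4, a bone morphogenetic protein, had 128, 182 and 166 CPM at day 28 and 83.9, 65.7 and 63.2 CPM at day 7, 2.23-fold higher (adjusted p = 0.000272). Gdf10, a ligand of the same family, was 5.57-fold higher, with 20.9, 37.5 and 39.9 CPM at day 28 and 3.61, 4.87 and 9.31 CPM at day 7 (adjusted p = 0.00339). Inhba, which encodes the subunit of activin A, had 3.88, 3.19 and 4.30 CPM at day 28 and 10.98, 18.2 and 15.9 CPM at day 7, 3.96-fold lower (adjusted p = 0.00187). Fstl1, a secreted follistatin-like protein, was 2.26-fold lower (adjusted p = 0.00181). Tgfbr3, Tgfbi, Id2 and Bambi were called higher as well, and Gdf6 lower. The 3 TGF-beta genes themselves were not called, with Tgfb1 at -0.79 ± 0.38, Tgfb2 at 0.21 ± 0.22 and Tgfb3 at -0.64 ± 0.26. There were 3 higher members without B6, and 4 without B4.

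Among 40 growth factors and binding proteins, 4 were higher and 1 was lower, against 3.27% and 3.43% of all genes tested (median 0.01, against 0.00). Igfbp6, which binds insulin-like growth factor 2, had 513, 475 and 533 CPM at day 28 and 150, 222 and 183 CPM at day 7, 2.74-fold higher (adjusted p = 0.00199), and was above the undamaged libraries too, which had 128 to 226 CPM (adjusted p = 0.00133). Igfbp3, a carrier of insulin-like growth factors, had 274, 280 and 390 CPM at day 28 and 41.9, 57.0 and 98.1 CPM at day 7 (log2 change 2.26, adjusted p = 0.00749). Figf, the lymphatic growth factor VEGF-D, was 2.78-fold higher (adjusted p = 0.00519), and Fgf10, which acts on epithelia, rose by 2.56 ± 0.69 on the log2 scale from a low level. Ptn, pleiotrophin, was 2.78-fold lower (adjusted p = 0.00814), a call lost without B4 or B6 (adjusted p = 0.0599 and 0.0733). Without E4, 7 members were higher.

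Of 36 matrix proteases and inhibitors, 2 were higher and 5 lower, against 3.27% and 3.43% of all genes tested (median -0.09). Adamts12, a metalloprotease that degrades Comp, had 16.8, 19.4 and 8.20 CPM at day 28 and 88.7, 113 and 97.7 CPM at day 7, 6.76-fold lower (adjusted p = 0.000394). Timp1, an inhibitor of metalloproteinases, had 77.0, 68.2 and 62.2 CPM at day 28 and 292, 333 and 278 CPM at day 7. It was 4.35-fold lower (adjusted p = 0.0232), a call lost without B4, B6, the uncoded library or 1B (adjusted p = 0.0523 to 0.115). Mmp2, the gelatinase of fibroblasts, was at 3760, 3288 and 3588 CPM at day 28 and at 3396, 2601 and 2660 CPM at day 7 (log2 change 0.30 ± 0.26), with overlap. The lower members numbered 1 without B4, 2 without B6, 2 without the uncoded library and 3 without 1B, and the higher members 0 without B4, B6, the uncoded library or 4B and 1 without 1B.

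Calls of inflammatory and stress genes are to be read beside the shares over all genes tested, 3.27% higher and 3.43% lower. Of 35 chemokines and cytokines 2 were higher (Tslp and Cxcl14), of 37 interferon genes 1 was lower (Oas2), of 23 complement genes 1 was higher (Serping1, 2.37-fold, adjusted p = 0.00224), and of 32 immediate early genes none was called, with 24 above 0 (median 0.42). Il6 illustrates the spread, with 62.8, 691 and 1095 CPM at day 28 and 113, 62.6 and 267 CPM at day 7, where E4 was far below B4 and B6. Of 56 nuclear genes of oxidative phosphorylation, 54 changes were above 0 and 1, Sdhc, was called (median 0.43). For 34 of them all day 28 values lay above all day 7 values and for 1 below, against 15.6% and 16.9% of all genes tested. Sdhc lost its call in all omissions but that of E4 (adjusted p = 0.0571 to 0.138), where 3 members were called. No gene of glycolysis or of cholesterol synthesis was called (medians 0.20 and 0.32), and of 38 genes of the secretory pathway 2 were higher and 1 was lower. Among the chemokines no member was called without B4 or 1B and 4 without E4, Oas2 was called in no omission (adjusted p = 0.0784 to 0.205), and 2 complement genes were higher without E4. Of 29 Wnt genes only Lgr6 was called lower, with 0, 0.0708 and 0 CPM at day 28 and 0.451, 1.34 and 1.03 CPM at day 7, and in no omission (adjusted p = 0.0644 to 0.199). Macrophage markers, 0 of 19 called, summed to 22.7 to 86.8 CPM at day 28 and 57.3 to 104 CPM at day 7, and endothelial markers to 548 to 711 CPM at day 28 and 511 to 608 CPM at day 7. The largest endothelial members were Eng, Tek and Ptprb, while Pecam1 was at most at 18.4 CPM. E4 had an endothelial sum of 700 CPM and B4 of 711 CPM, although the median ratio was 3.34. Such sums follow their largest members. Among 17 endothelial markers Erg and Ptprb were lower and Tek was higher, and none of the 3 was called without B4 or B6 (adjusted p = 0.0543 to 0.201). Of 16 cardiomyocyte markers, 11 changes were above 0 and Ckm, muscle creatine kinase, was called higher. It had 6.31, 0.638 and 0.888 CPM at day 28 and 0.0752, 0 and 0.0940 CPM at day 7 (log2 change 5.39 ± 1.61, adjusted p = 0.0437), and was called in no omission (adjusted p = 0.0582 to 0.182). The list summed to 492 to 575 CPM at day 28 and 357 to 597 CPM at day 7, with Ryr2 at 0 in all day 28 libraries. Its largest members were Atp2a2, Tnnt2 and Mb. The part of other cell types in the results was not tested.

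Beyond the lists, the largest changes named by rule included H19, an imprinted long noncoding RNA of growing tissue (ENSMUSG00000000031.16, chromosome 7, 142575529 to 142578143). It had 14.1, 2.34 and 2.53 CPM at day 28 and 232, 424 and 494 CPM at day 7, 62.0-fold lower (log2 change -5.96 ± 1.10, adjusted p = 0.00186), with 0 to 15.6 CPM in undamaged libraries. C1qtnf3, a secreted C1q-like protein (ENSMUSG00000058914.12, chromosome 15, 10952332 to 10980150), had 10.7, 7.37 and 9.97 CPM at day 28 and 203, 686 and 292 CPM at day 7. It was 42.1-fold lower (adjusted p = 0.000554) and still above the undamaged libraries at 0.0683 to 2.61 CPM (adjusted p = 0.0339). Cemip, which degrades hyaluronan, was 30.1-fold lower, Cdh3, P-cadherin, 12.5-fold and Kif26b, a kinesin-like protein, 10.2-fold (adjusted p = 0.000899, 0.00139 and 0.00326).

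On the other side stood Tmem255a, a membrane protein, at 11, 21.8 and 30.3 CPM at day 28 and 2.71, 2.12 and 4.70 CPM at day 7 (adjusted p = 0.000469). Ntrk2, a neurotrophin receptor, had 9.10, 26.6 and 20.5 CPM at day 28 and 3.53, 1.81 and 4.70 CPM at day 7 (adjusted p = 0.00442). Nmb, the gene of the peptide neuromedin B, had 46.6, 76.4 and 75.9 CPM at day 28 and 13.1, 15.02 and 12.98 CPM at day 7, 4.84-fold higher (adjusted p = 0.000205), against an undamaged mean of 69.2 CPM. Gpnmb, a membrane glycoprotein, had 129, 135 and 147 CPM at day 28 and 23.7, 23.4 and 30.8 CPM at day 7 (5.27-fold, adjusted p = 0.00538). Its day 28 values were also above the undamaged range of 33.6 to 84.3 CPM, a difference that was not called (adjusted p = 0.189). Myoc, myocilin, was 4.59-fold higher (adjusted p = 0.000981) and Ccdc3 4.72-fold (adjusted p = 0.00224). Slc10a6 and the clock output gene Dbp, 6.58-fold and 5.42-fold higher (adjusted p = 0.0114 and 0.031), were not called in most omissions. Slc10a6 lost its call without B4, B6, the uncoded library or 1B (adjusted p = 0.0521 to 0.0732), and Dbp in each omission but that of 1B (adjusted p = 0.0619 to 0.139). Over the 6 omissions the log2 change was 2.25 to 3.19 for Slc10a6 and 2.05 to 3.52 for Dbp.

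Whether Sca-1 negative cells changed in their own way was asked by setting them beside the Sca-1 positive cells, which had 4 libraries at day 28 and 3 at day 7. There 76 genes were higher (0.541% of those tested) and 86 lower (0.612%), together 162 (1.15%). Of the positive day 28 libraries, E2 had 6792786 counts in genes and 55.8% of counts outside genes, and B6 had 9020560 and 18.7%. Both were among the 6 libraries of other groups left out in the alternative above. The part of library quality in the number of calls was not tested. Of the 460 genes higher in Sca-1 negative cells, 49 were also called higher in positive cells, which is 10.7% of the first list and 64.5% of the second. Of the 482 lower genes, 73 were shared, 15.1% of the first and 84.9% of the second, and no gene was called in opposite directions. By sign alone, 445 of the 460 and 463 of the 482 changed the same way in positive cells. Medians of the genes chosen by their call in negative cells were 0.96 there and 0.49 in positive cells for the higher ones, and -1.28 and -0.66 for the lower ones, a choice that favours the negative cells. By list, positive cells had 0 lower calls of 40 cell cycle genes (median -1.13), 7 of 30 activation genes, 8 of 11 fibrillar collagens (median -1.37) and 2 higher of 38 resting genes (median 0.37).

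The test of the difference itself called 0 of 14052 genes by edgeR without the library code as a block (610 at an unadjusted p under 0.05), 0 by limma-voom and 1 by DESeq2, which was Alb. Libraries of the 2 gates that share a code deviated together, so the fit with the code as a block is given beside it. At day 28 only B4 and B6 have both gates under one code. The negative library E4 and the positive libraries E2 and F2 therefore carry no weight in this fit's difference. It called 8 genes. Aspn, Wisp1, C1qtnf3, H19, Cdh11, Timp1 and Vipr1 changed more negatively in Sca-1 negative cells, and Gfra1, a receptor of glial neurotrophic factors, more positively. Aspn had 952, 548 and 733 CPM at day 28 and 1626, 2330 and 1407 CPM at day 7 in negative cells. In positive cells it had 2662, 1354, 1257 and 1431 CPM at day 28 and 1160, 1938 and 1009 CPM at day 7. Its difference of changes was -1.49 on the log2 scale with the block (adjusted p = 0.0217) and -1.56 ± 0.42 without it (adjusted p = 1). Gfra1 had 181, 354 and 302 CPM at day 28 and 95.8, 154 and 147 CPM at day 7 in negative cells, against means of 149 ± 43.2 CPM at day 28 (SD, n = 4) and 168 ± 6.15 CPM at day 7 (SD, n = 3) in positive cells. Its difference was 1.43 with the block (adjusted p = 0.0471). Vipr1 rested on 1 positive day 28 library, B6, with 156 CPM where the other 3 had 0.125 to 0.144 CPM, and negative cells had at most 3.15 CPM. Alb, the gene called by DESeq2, was at 28.6 CPM in the negative library 4B of day 7. In positive cells it was at 153.5 CPM in 1A of day 7 and at 31.6 CPM in B6 of day 28. All other libraries of these groups had at most 0.469 CPM of Alb.

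**Figure D4:**
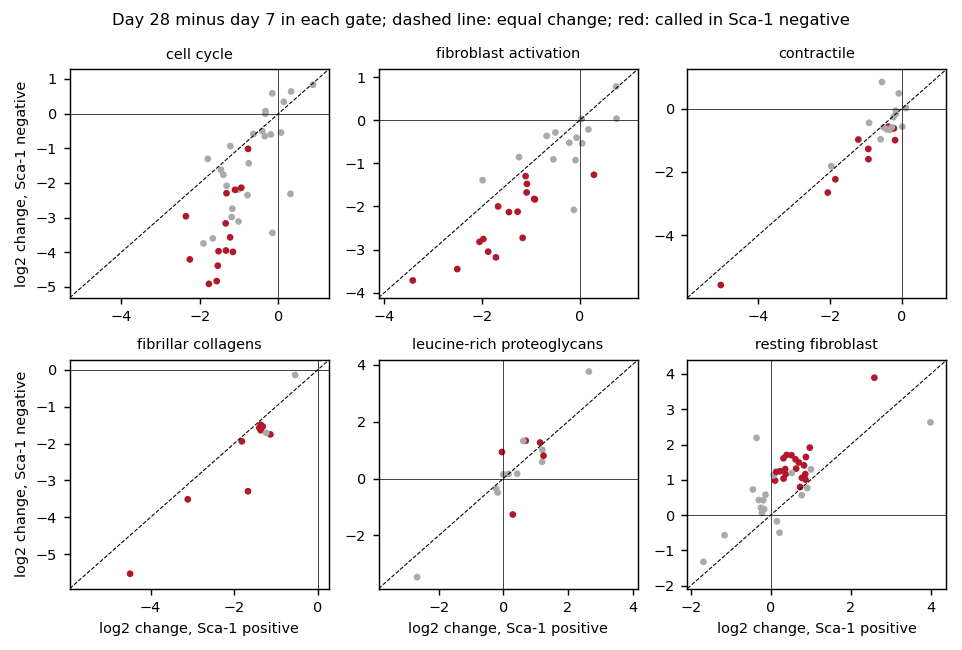
Log2 change at day 28 against day 7 of the members of 6 gene lists in Sca-1 negative cells (vertical axis) and Sca-1 positive cells (horizontal axis). Each point is a gene, red where called in Sca-1 negative cells, and the dashed line marks equal change; most called cell cycle genes lie below the line and most called resting genes above it, a choice made on the vertical axis.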

How the data were processed

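RNA was sequenced from sorted Sca-1 negative and positive cells; libraries were made with TruSeq Stranded mRNA and read on a NextSeq 500, per the labels' protocols. The values are raw counts per gene as deposited by the authors; the submitters' processing notes name mm10, bcl2fastq, TopHat, Bowtie2, STAR and Cufflinks, and the counter, strand setting and annotation are not given in the sources used here, so genes that overlap or are antisense to another cannot be told apart. Entries naming no gene were left out (7.18% to 11.1% of counts outside genes in the 6 libraries). All 26 libraries in 8 groups were fitted with edgeR 4.0.16 in R 4.3.3 (TMM, filterByExpr, quasi-likelihood test, 18 residual degrees of freedom), leaving 14052 of 24421 genes, with Benjamini-Hochberg adjustment over all of them. CPM use library totals scaled by TMM; fold values are fitted log2 changes on a linear scale. Genes were named as anchors, as up to 12 called genes per direction with the largest change, no overlap and a mean log2 CPM of at least 3, or as up to 4 called members per list; further list members were chosen after their values were seen. Members and lists were chosen with earlier results of these data known. Codes shared across gates were taken as pairs, and so were the uncoded libraries of day 7. These pairs correlated at 0.257 to 0.462 in their deviations from group means, each best with its own partner. Deviations cancel within a group, so the lower correlation with other libraries is in part built in. At day 14, with 2 libraries per gate, it is the exact opposite of the pair's own. The correlations are therefore no independent test of pairing. Positions are from GENCODE M21 (GRCm38; 96.4% of tested genes matched) and promoters from RefSeq. DESeq2 1.42.0 and limma 3.58.1 were alternatives. The fit was also run on simulated data, whose results are not given here and are not used in the text.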

Additional observations from a re-analysis of the deposited data

Results flagged for a closer look

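The change at day 28 against day 7 differed between the gates for 8 genes in the fit with the library code as a block, each with an adjusted p of 1 without it. At day 28 the block fit compared the gates through codes B4 and B6 alone. As Sca-1 negative minus Sca-1 positive on the log2 scale, the differences were -1.49 for Aspn, -3.42 for C1qtnf3, -2.15 for Wisp1, 1.43 for Gfra1, -3.05 for H19, -1.40 for Cdh11, -11.51 for Vipr1 and -1.49 for Timp1. Vipr1 was at 155.7 CPM in the Sca-1 positive library B6 of day 28 and at most at 3.145 CPM in the other libraries of these groups.

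Among the 4 undamaged Sca-1 negative libraries, 1 lay far from the others for 5 of 85 genes examined, where chance sets apart about 1 in 20 groups. H19 was at 15.63 CPM in library E5, against 0 to 2.588 CPM in the others. Library B7 held C1qtnf3 at 2.61 CPM, against 0.06825 to 0.2005 CPM, Acan at 1.078 CPM, against 0 to 0.06825 CPM, and Lgr6 at 2.383 CPM, against 0.1337 to 0.3412 CPM. Col3a1 was at 5017 CPM in library F3, against 6284 to 6542 CPM.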

How the results depend on the processing

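The 460 higher and 482 lower genes became 184 to 526 higher and 136 to 474 lower when each of the 6 libraries was left out in turn. DESeq2 called 792 lower genes, and 435 in Sca-1 positive cells, where 162 were called by edgeR, and 1 for the difference between gates. A fit of the 6 libraries alone called 909 lower. Prefixed libraries alone gave 40 genes in Sca-1 positive cells. Titles alone as the source of the gate gave 58 higher, 69 lower and 6 in Sca-1 positive cells; with 1B as the only day 7 library, added after seeing the data, 49 were higher and 73 lower. In both, the lone library is assumed to vary like the other groups. Without 6 other libraries, also added later, the counts were 1179, 1384 and 87. No paired analysis was possible for day 28 against day 7 because the times share no code; for the difference between gates, the replicate block gave 8 genes in place of 0. Of the 84 named genes that were called, 55 to 77 kept the call over the omissions and 30 with titles alone, and no called gene reversed its direction and remained called in any alternative run. Other scalings left the counts within 1.5 times. Few libraries per time and low counts of mitotic genes limit the precision.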

Other observations

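Genes with glutathione transferase symbols were examined after values had been seen. Of 20 tested, 9 were higher at day 28 and 1 was lower, against 3.27% and 3.43% of all genes tested. The median log2 change was 1.17, against 0.00 over all genes tested. The lower one was Gstcd (log2 change -0.92 ± 0.24, adjusted p = 0.0229). Gstm1, which conjugates glutathione to reactive compounds, had 702, 931 and 731 CPM at day 28 and 138, 250 and 189 CPM at day 7 (log2 change 2.04 ± 0.26, adjusted p = 9.02e-05). Of 18 clock genes, chosen in the same way, 4 were higher and none lower (median 0.69). Nr1d1, a repressor of the clock, had 491, 393 and 356 CPM at day 28 and 128, 174 and 115 CPM at day 7 (adjusted p = 0.000412). The hour of collection was not given in the labels.

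Of 20 imprinted genes, 5 were higher and 4 lower, against 3.27% and 3.43% of all genes tested (median -0.58). Dcn and H19, whose values were given above, were among these calls. Mest, active in growing tissue, had 11.45, 18.98 and 16.3 CPM at day 28 and 99.99, 114.5 and 105 CPM at day 7 (adjusted p = 0.00034), and Cdkn1c, an inhibitor of the cell cycle, had 84.4, 108 and 109 CPM at day 28 and 22.9, 22.1 and 32.4 CPM at day 7 (adjusted p = 0.00011). Of 23 cartilage matrix genes, 7 were lower, against 3.43% of all genes tested, and none was higher (median -0.63). Among the 7, Acan, Sox9, Col2a1 and Col9a2 were given above, so this group overlaps the earlier lists. The others were Col11a1, Col27a1 and Matn4. Matn4, a matrilin, changed by -2.99 on the log2 scale (adjusted p = 0.000138).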
